A study of Homo sapiens with 12 samples.

Results

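Human liver spheroid co-cultures of C3A cells, a hepatocyte-like clonal derivative of the HepG2 hepatoma line, and a smaller number of LX-2 cells, an immortalized line of activated hepatic stellate cells, were followed for 10 genes that are expected from the stellate partner. The genes were VIM, CAV1, TMSB4X, GSTP1, LDHB, THY1, TAGLN, SPARC, S100A4 and AXL, out of 16705 genes in the table. They were chosen by name, and the choice used their measured change between culture times: 9 were lower at the later time, and AXL was taken as the contrast because it was higher. RNA was measured in 12 libraries, 3 in each of 4 groups: untreated spheroids at 24 h, spheroids exposed to 1% TPN for 24 h, untreated spheroids at 144 h and spheroids exposed to 1% TPN for 144 h. TPN, total parenteral nutrition, is a fluid for intravenous feeding that holds glucose, a lipid emulsion, amino acids with electrolytes, vitamins and trace elements. The study began exposure 3 days after seeding, so 24 h and 144 h count from then and are not ages of the culture. All 4 groups shared the cell lines and the medium. Both partners are immortalized lines, and spheroids were pooled for each library. The study describes its sequencing data as coming from independent experiments, which the sample labels do not state.

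Hepatic stellate cells store vitamin A in the healthy liver, and on injury they become contractile, matrix-producing myofibroblasts. Mesenchymal cells of this kind carry a vimentin cytoskeleton, caveolae and actin stress fibres, and they secrete collagens and matrix-binding proteins. Hepatocytes and hepatoma lines are epithelial, with keratins 8 and 18 as their filaments, and make little of several of these products, so that such genes are commonly read as signs of the mesenchymal partner in a co-culture.

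Values are FPKM, fragment numbers per unit of transcript length and of library size, as computed by the authors. The libraries summed to between 561700 and 583700 FPKM, and the steps between low values in 62 short genes put the depth of a library at about 1.86e+07 fragments, with a range from 1.81e+07 to 1.91e+07. At that depth 1 fragment on a transcript of 2000 bases is worth 0.032 FPKM, so values near 0.1 FPKM rest on few fragments. Changes were fitted with limma on log2(FPKM + 0.1) over 11713 genes with a mean of at least 0.5 FPKM, and all 10 genes passed this filter. The added 0.1 makes the log2 change of a low gene smaller than the change of its FPKM. The labelled cell types were checked against their markers. Of 20 hepatocyte markers 19 were tested, with a summed level of 27780 to 29130 FPKM in untreated spheroids at 24 h and 31920 to 33660 FPKM at 144 h. Of the markers of stellate cells used in qPCR, COL1A1, a chain of type I collagen, stood at 15.1 ± 1.11 FPKM (SD, n = 3), ACTA2, smooth muscle actin, at 57.8 ± 0.684 FPKM and PDGFRB, a growth factor receptor, at 3.10 ± 0.0577 FPKM in untreated spheroids at 24 h. DES, the muscle-type filament desmin, was near 0, with group means from 0.03 to 0.06 FPKM, and the stellate and fibroblast markers DCN and LRAT were listed at 0 in all 3 of these libraries. All 7 endothelial markers in the table were below the filter, with a summed level of 0.25 to 1.07 FPKM per library over the 4 groups.

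Between 24 h and 144 h, 7 of the 10 genes fell to a small part of their FPKM in untreated spheroids. SPARC and S100A4 kept about the same moderate part, and AXL was higher. The remaining level at 144 h ran from 7.91% of the 24 h level for THY1 to 19.5% for TAGLN in the group of 7, and was 49.7% for SPARC and 55.5% for S100A4, against 257% for AXL. FPKM is a share of the library, and the study reports that the spheroids grew during culture. In bulk RNA, more C3A cells, fewer stellate cells and less RNA per cell cannot be told apart. The 10 genes did not change alike, and these causes, which are not the only ones possible, were not tested. Because the genes were chosen on this change, it is given as a description without a test.

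**Figure D1:**
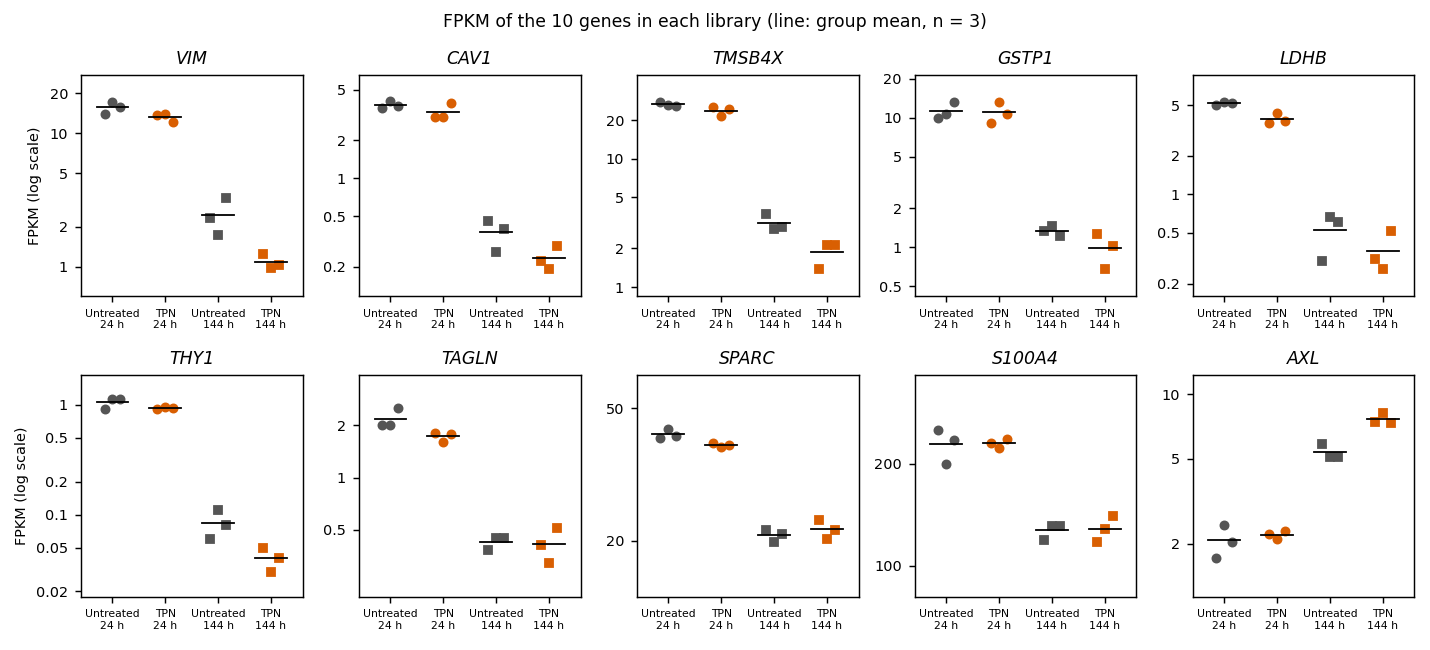
FPKM of the 10 genes (1 panel each, logarithmic vertical axis with its own range in each panel) in the 12 libraries by group. Points are libraries (circles 24 h, squares 144 h, grey untreated, orange TPN) and lines are group means of 3. In 9 panels all 144 h libraries lie below all 24 h libraries, and in the AXL panel all lie above.

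Among the genes of the cytoskeleton and cell surface, VIM (gene 7431, chr10:17228241-17238377, GRCh38.p13), which encodes the intermediate filament vimentin, had 14.0, 17.1 and 15.9 FPKM in the untreated libraries at 24 h and 2.32, 1.74 and 3.25 FPKM at 144 h. The 144 h libraries lay far below the 24 h libraries, a difference of 6.42 times between means and a log2 fold change of -2.67 (SE 0.164). TMSB4X (gene 7114, chrX:12975110-12977223), thymosin beta 4, which binds actin monomers, had 28.0, 26.3 and 25.9 FPKM at 24 h and 3.73, 2.85 and 2.96 FPKM at 144 h, a log2 fold change of -3.04 (SE 0.139). TMSB4X has near-identical processed copies in the genome, so its level is uncertain to the extent that fragments were shared with them. TAGLN (gene 6876, chr11:117199294-117210292), transgelin, an actin-binding protein of smooth muscle and myofibroblasts, had 2.02, 2.01 and 2.52 FPKM at 24 h and 0.38, 0.45 and 0.45 FPKM at 144 h. Its groups did not overlap, and its remaining share was the highest of the 7.

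CAV1 (gene 857, chr7:116525009-116561185), caveolin-1, the coat protein of caveolae, had 3.61, 4.06 and 3.72 FPKM in untreated spheroids at 24 h and 0.46, 0.26 and 0.40 FPKM at 144 h. The means differed 10.2 times, with a log2 fold change of -3.06 (SE 0.172). THY1 (gene 7070, chr11:119415476-119424985), a glycolipid-anchored surface protein of fibroblasts, had 0.92, 1.12 and 1.12 FPKM at 24 h and 0.06, 0.11 and 0.08 FPKM at 144 h. It was the lowest of the 10 genes at both times, and its 144 h values rest on few fragments, so the ratio of 12.6 between its means is imprecise.

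Among the enzymes, GSTP1 (gene 2950, chr11:67583812-67586653), the pi-class glutathione transferase that is low in hepatocytes, had 9.90, 10.8 and 13.3 FPKM in untreated spheroids at 24 h and 1.33, 1.47 and 1.22 FPKM at 144 h. LDHB (gene 3945, chr12:21635342-21657971), the heart-type subunit of lactate dehydrogenase, had 5.00, 5.32 and 5.17 FPKM at 24 h and 0.30, 0.67 and 0.61 FPKM at 144 h. Both were about as far below their 24 h level as CAV1, with log2 fold changes of -2.98 (SE 0.181) for GSTP1 and -3.13 (SE 0.228) for LDHB, and LDHB also has processed copies that could share fragments.

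The secreted and calcium-binding genes changed less. SPARC (gene 6678, chr5:151661096-151686975), osteonectin, a collagen-binding matrix glycoprotein, had 40.8, 43.3 and 41.4 FPKM at 24 h and 21.5, 19.8 and 21.0 FPKM at 144 h. S100A4 (gene 6275, chr1:153543621-153545806), a calcium-binding protein also known as fibroblast-specific protein, was the most abundant of the 10, with 253, 199.8 and 235 FPKM at 24 h and 119, 131 and 131 FPKM at 144 h. The libraries of the 2 times did not overlap in either gene, but the log2 fold changes were -1.01 (SE 0.0475) and -0.84 (SE 0.0759), far from those of the other 7.

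AXL (gene 558, chr19:41219223-41262385), a receptor tyrosine kinase that binds the ligand GAS6 and is carried by many mesenchymal cells, had 1.72, 2.46 and 2.05 FPKM in untreated spheroids at 24 h and 5.82, 5.10 and 5.11 FPKM at 144 h. All libraries at 144 h lay above all at 24 h, a ratio of 2.57 between means and a log2 fold change of 1.33 (SE 0.105). Within each library, log2 AXL minus the mean log2 of the other 9 genes was -2.54, -2.11 and -2.42 in untreated spheroids at 24 h and 1.54, 1.33 and 1.23 at 144 h, so AXL changed from below the mean of the others to above it.

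All 10 genes had groups that did not overlap in the untreated time contrast, as did 74.9% of all genes tested, and the limma test (adjusted p below 0.05) called 20.1% of all genes higher and 52.4% lower at 144 h. These shares set no test for genes chosen on that contrast. The log2 fold change ranked LDHB 2, CAV1 3, TMSB4X 5, GSTP1 6, VIM 18, THY1 19 and TAGLN 46 from the largest fall among 11713 genes, with SPARC at 256 and S100A4 at 458. With a pseudocount of 1 the log2 fold changes shrank to -1.81 for CAV1, -2.02 for LDHB, -1.15 for TAGLN and -0.92 for THY1, so these ranks hold for a pseudocount of 0.1. A log2 fall over 2 was seen in 49 genes, or 0.418% of those tested, and a fall over 1 in 260 genes, or 2.22%. The median log2 fold change over all genes was -0.18, against -2.67 over the 10 genes. With median ratio scaling that median was -0.0078, and 3880 genes were called higher and 3948 lower in place of 2360 and 6138. Under that scaling the log2 fold changes were -0.83 for SPARC, -0.67 for S100A4 and 1.51 for AXL, so none of the 3 changed direction.

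In spheroids exposed to TPN the same 9 genes were lower and AXL was higher at 144 h. Again all 10 genes had groups without overlap, as did 77.9% of all genes, with 24.2% of genes called higher and 52.0% lower. The remaining level was 4.30% for THY1, 6.97% for CAV1, 7.89% for TMSB4X, 8.16% for VIM, 8.98% for GSTP1 and 9.27% for LDHB. TAGLN kept 23.9%, SPARC 55.8% and S100A4 55.9%, and AXL stood at 345% of its 24 h level. The log2 fold changes of VIM were -2.67 in untreated and -3.50 in exposed spheroids, and those of TMSB4X were -3.04 and -3.62, while S100A4 had -0.84 in both.

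**Figure D2:**
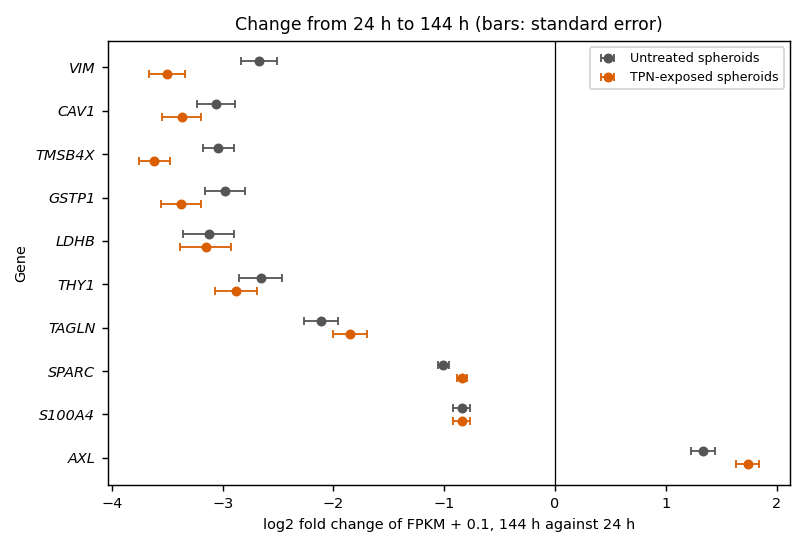
Log2 fold change of FPKM + 0.1 from 24 h to 144 h (horizontal axis) for the 10 genes (vertical axis) in untreated (grey) and TPN-exposed (orange) spheroids, with bars for the standard error. SPARC and S100A4 lie near -1, the other 7 lower genes lie between -1.85 and -3.62, and AXL lies at 1.33 and 1.74.

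RefSeq promoters (GRCh38.p14) were used for 8 of the 10 genes, those of THY1 and TAGLN not being analysed here, and the 250 bases before the annotated start were searched on both strands for 4 motifs, whose matches may overlap. Letters in capitals mark the AP-1 site TGACTCA, the GC box GGGCGG, the TATA box TATAAA and the CArG box bound by serum response factor. The 4 sequences shown are those of a gene with 3 of these motifs that was strongly lower at 144 h (GSTP1), of another such gene with 1 motif (TMSB4X), of the gene that was lower by the least (S100A4) and of the gene that was higher (AXL). They lie at chr11:67583562-67583811 (plus strand), chrX:12974860-12975109 (plus strand), chr1:153545807-153546056 (minus strand) and chr19:41218973-41219222 (plus strand).
GSTP1: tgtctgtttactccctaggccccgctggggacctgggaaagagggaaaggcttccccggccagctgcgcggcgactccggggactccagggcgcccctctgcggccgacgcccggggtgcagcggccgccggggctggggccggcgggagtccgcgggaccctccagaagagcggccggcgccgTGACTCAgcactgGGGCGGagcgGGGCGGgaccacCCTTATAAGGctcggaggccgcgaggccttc
TMSB4X: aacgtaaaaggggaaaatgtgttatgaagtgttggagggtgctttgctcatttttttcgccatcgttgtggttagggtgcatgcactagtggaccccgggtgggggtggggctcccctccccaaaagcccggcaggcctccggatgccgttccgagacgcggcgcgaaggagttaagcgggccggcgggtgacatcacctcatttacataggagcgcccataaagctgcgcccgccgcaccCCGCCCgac
S100A4: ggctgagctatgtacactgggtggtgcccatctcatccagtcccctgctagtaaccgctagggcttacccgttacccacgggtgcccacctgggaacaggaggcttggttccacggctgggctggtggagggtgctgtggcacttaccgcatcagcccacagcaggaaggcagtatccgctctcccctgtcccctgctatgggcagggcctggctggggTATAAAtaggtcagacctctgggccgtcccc
AXL: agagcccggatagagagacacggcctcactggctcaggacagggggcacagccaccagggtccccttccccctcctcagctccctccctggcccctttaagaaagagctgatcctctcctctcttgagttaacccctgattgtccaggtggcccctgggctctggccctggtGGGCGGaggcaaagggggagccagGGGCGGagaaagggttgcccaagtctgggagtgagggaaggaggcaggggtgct

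The GC box was present in 6 of the 8 promoters (VIM, CAV1, TMSB4X, GSTP1, LDHB and AXL), against 42.3% of 27305 promoters of the same length. The letters TATAAA were present in LDHB and S100A4, against 11.1% of promoters. They lay 244 to 237 bases before the start in LDHB and 31 to 26 bases before it in S100A4. Both the AP-1 site (4.16% of promoters) and the CArG box (1.14%) were present in GSTP1 alone. GSTP1 had the highest GC content of the 8, 74.8%, and VIM the lowest, 46%, with a median of 58% over all promoters. AXL thus shared the GC box with 5 of the genes that were lower at 144 h, and S100A4 and SPARC lacked it. A match of letters is not a measured binding site.

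In the main model, exposure to TPN for 24 h left the 10 genes without a called change. None of the 10 passed the limma test (adjusted p below 0.05), against 5.04% of all genes called higher and 5.46% called lower, and 1 of the 10, SPARC, had an unadjusted p below 0.05. SPARC had 40.8, 43.3 and 41.4 FPKM in untreated and 39.5, 38.1 and 38.9 FPKM in exposed spheroids, a log2 fold change of -0.11 (95% interval -0.21 to -0.0047, adjusted p = 0.187). The largest difference was that of LDHB, with 5.00, 5.32 and 5.17 FPKM untreated and 3.64, 4.34 and 3.78 FPKM exposed. Its groups did not overlap, and its log2 fold change was -0.39 (95% interval -0.88 to 0.10, limma adjusted p = 0.330). LDHB passed with only the compared groups in the model (limma adjusted p = 0.0131) and with a pseudocount of 1 (limma adjusted p = 0.0458). The estimates were below 0 for 8 genes and above 0 for S100A4 and AXL, with a median of -0.16 against -0.0045 over all genes. Groups did not overlap for 5 of the 10 genes (VIM, TMSB4X, LDHB, TAGLN and SPARC), against 29.9% of all genes. For VIM the interval ran from -0.59 to 0.12 and for TMSB4X from -0.47 to 0.13.

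At 144 h VIM, TMSB4X and, less firmly, CAV1 were lower with TPN and AXL was higher. These 4 of 10 genes passed the limma test, 3 lower and 1 higher, against 28.3% of all genes called lower and 24.2% called higher, so neither count stands above the background. The untreated 144 h libraries of this comparison also belong to the contrast on which the genes were chosen. CAV1, LDHB, THY1 and TAGLN averaged below 0.5 FPKM over the 144 h libraries and passed the filter only through their 24 h levels. The median log2 fold change was -0.40 over the 10 genes and -0.018 over all genes, and groups did not overlap for 4 of the 10 (VIM, TMSB4X, THY1 and AXL), against 57.3% of all genes.

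VIM had 2.32, 1.74 and 3.25 FPKM in untreated and 1.24, 0.97 and 1.03 FPKM in exposed spheroids at 144 h. All exposed libraries lay below all untreated libraries, at 44.3% of the untreated mean, and the log2 fold change was -1.07 (SE 0.164, 95% interval -1.42 to -0.71, adjusted p = 1.04e-04 by limma). TMSB4X had 3.73, 2.85 and 2.96 FPKM untreated and 1.38, 2.12 and 2.13 FPKM exposed. It too was lower without overlap, at 59.0% of the untreated mean, with a log2 fold change of -0.75 (SE 0.139, limma adjusted p = 4.95e-04). With the added criterion of an absolute log2 fold change above 0.58, these 2 genes alone were called lower, against 3.73% of all genes.

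CAV1 had 0.46, 0.26 and 0.40 FPKM in untreated and 0.22, 0.19 and 0.29 FPKM in exposed spheroids at 144 h, and its groups overlapped. Its log2 fold change of -0.49 (SE 0.172, limma adjusted p = 0.0278) was close to the threshold. It was lost with a pseudocount of 1 (adjusted p = 0.146), with only the compared groups in the model (adjusted p = 0.128), and without untreated library 1 (adjusted p = 0.118) or 3 (adjusted p = 0.0805) or exposed library 1 (adjusted p = 0.0653) or 2 (adjusted p = 0.0985). Over all alternatives the adjusted p of CAV1 ran from 0.00343 to 0.146.

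AXL had 5.82, 5.10 and 5.11 FPKM in untreated and 7.38, 8.12 and 7.35 FPKM in exposed spheroids at 144 h, without overlap. The log2 fold change was 0.50 (SE 0.105, 95% interval 0.28 to 0.73, limma adjusted p = 0.00118). The difference of log2 AXL from the mean of the other 9 genes was 2.21, 2.51 and 2.07 in the exposed libraries, all above the 3 untreated values, and -2.05, -2.15 and -2.04 in the exposed libraries at 24 h.

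The remaining 6 genes did not pass at 144 h, although GSTP1, LDHB and THY1 passed under some alternatives. The limma estimate for GSTP1 was -0.44 (95% interval -0.83 to -0.050, adjusted p = 0.0557) and for THY1 -0.38 (95% interval -0.80 to 0.031, adjusted p = 0.110), with THY1 at 0.05, 0.03 and 0.04 FPKM in exposed spheroids. LDHB, at 0.31, 0.26 and 0.52 FPKM, had an estimate of -0.42 (95% interval -0.91 to 0.073, limma adjusted p = 0.140). TAGLN stood at 96.9%, S100A4 at 101% and SPARC at 104% of the untreated mean. Their intervals were -0.38 to 0.28, -0.15 to 0.18 and -0.044 to 0.16 on the log2 scale, and none of them reached the estimate of VIM.

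**Figure D3:**
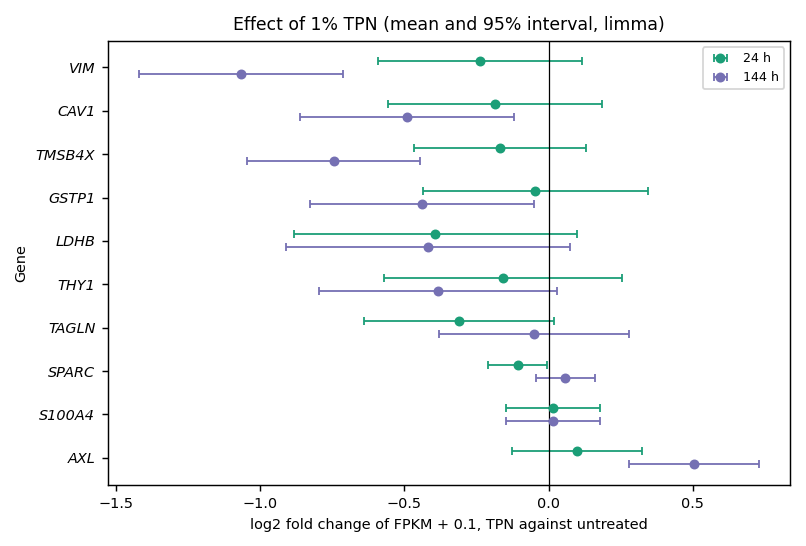
Log2 fold change of FPKM + 0.1 in TPN-exposed against untreated spheroids (horizontal axis) for the 10 genes (vertical axis) at 24 h (green) and 144 h (purple), with 95% intervals from limma. At 144 h VIM lies at -1.07, TMSB4X at -0.75 and AXL at 0.50, while S100A4 lies at 0.014 at both times.

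The difference between the TPN effects at 144 h and 24 h passed the limma test for VIM and TMSB4X, 2 of 10 genes, against 30.4% of all genes in either direction. For VIM the difference was -0.83 (SE 0.232, 95% interval -1.33 to -0.33, adjusted p = 0.0158) and for TMSB4X -0.58 (SE 0.196, 95% interval -1.0 to -0.15, adjusted p = 0.0400). AXL had a difference of 0.41 (limma adjusted p = 0.0542) and SPARC of 0.17 (limma adjusted p = 0.0785). That of TMSB4X depended on settings, with adjusted p from 0.0242 to 0.0939 over the alternatives, and that of VIM ran from 0.00126 to 0.0514. This difference also equals the change with time in exposed spheroids minus that in untreated spheroids. The genes were chosen on a change with time, which limits how its p values can be read. The TPN comparisons at the 2 times and the time comparisons share libraries, so their values are set side by side only.

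Most of the other listed mesenchymal genes were lower at 144 h too. The lists were drawn up with earlier results of these data known, so their counts with time are a description. Of 88 genes listed as stellate and fibroblast markers, contractile and cytoskeletal genes, genes typical of mesenchymal lines, transcription factors of epithelial-mesenchymal transition or qPCR markers of stellate cells, 57 were tested. Between 24 h and 144 h in untreated spheroids 41 fell, 11 rose and 5 did not pass, with a median log2 fold change of -0.58 against -0.18 over all genes, and 12 fell by more than 2 on the log2 scale. With time 52.4% of all genes were called lower and 20.1% higher. The stellate and fibroblast markers had 11 lower and 2 higher of 14 tested and a median of -1.42. The genes typical of mesenchymal lines had 17 lower and 4 higher of 23 and a median of -0.79. Of 18 contractile genes 13 were lower and 3 higher, with a median of -0.34. The 2 tested transcription factors of epithelial-mesenchymal transition, ZEB1 and SNAI1, were both higher, with a median of 0.74.

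COL1A1 had a change in the range of the 7 genes that fell most, from 15.1 ± 1.11 to 1.92 ± 0.401 FPKM in untreated spheroids, a log2 fold change of -2.93 (SE 0.135). The actin-linking protein MSN (-2.83), the hyaluronan receptor CD44 (-2.48) and the type III collagen gene COL3A1 (-2.59), which were named after their values were seen, were similar in size. Other markers did not follow. ACTA2 went from 57.8 ± 0.684 to 47.9 ± 2.60 FPKM (log2 fold change -0.27), and PDGFRB stood at 3.10 ± 0.0577 and 3.08 ± 0.0557 FPKM (log2 fold change -0.0075, 95% interval -0.17 to 0.15, limma adjusted p = 0.932). LOX, lysyl oxidase, a collagen cross-linking enzyme, rose from 56.6 ± 2.35 to 146 ± 4.02 FPKM, a log2 fold change of 1.37, beside 1.33 for AXL. By qPCR against the housekeeping gene HPRT1, the study reports COL1A1, ACTA2, PDGFRB and DES as stable over culture. Its first time was the start of exposure, before the 24 h libraries, and its last was the end of the longest exposure. The measures are unlike, and the difference for COL1A1 was not tested.

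With TPN at 144 h the listed mesenchymal genes split in both directions, with 26 higher, 20 lower and 11 not passing of 57. Over all genes 24.2% were higher and 28.3% lower, and the medians were 0.086 and -0.018. When a mean of at least 5 FPKM was required 9 were lower. COL1A2, COL5A1, CD44 and ANXA1, for example, were among the lower genes with group means below 0.5 FPKM at 144 h. They passed the filter only through their 24 h levels, so the number lower rests in part on low values. The number higher stayed between 22 and 26 over all alternatives. COL1A1 fell with VIM, to 0.747 ± 0.155 FPKM, by 1.25 on the log2 scale (limma adjusted p = 4.22e-06), and PDGFRB fell to 2.32 ± 0.144 FPKM (log2 fold change -0.40, limma adjusted p = 5.26e-04). ACTA2 stood at 45.4 ± 1.57 FPKM (log2 fold change -0.076, limma adjusted p = 0.130). In contrast the galectin gene LGALS1 (log2 fold change 1.47), the small calcium-binding gene S100A11 (1.55), the membrane protein gene EMP3 (1.51) and the protease inhibitor gene TIMP1 (1.06) rose.

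**Figure D4:**
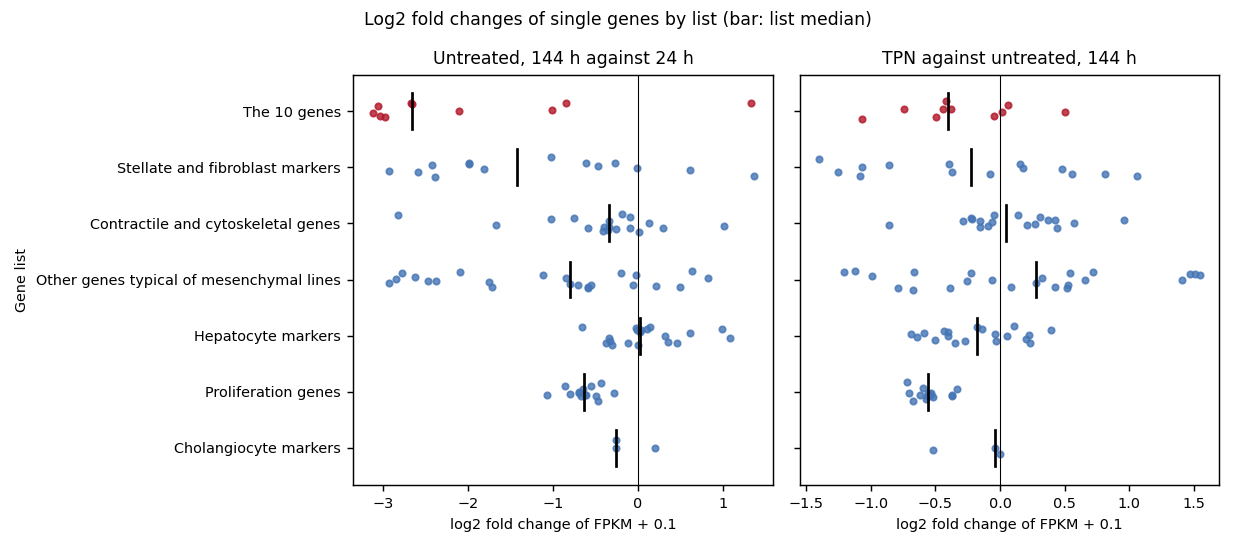
Log2 fold change of FPKM + 0.1 (horizontal axis) of single tested genes in 7 lists (vertical axis), for untreated spheroids at 144 h against 24 h (left) and for TPN against untreated at 144 h (right). Points are genes (red, the 10 genes; blue, other lists) and bars are list medians, which on the left are -2.67 for the 10 genes, -1.42 for stellate and fibroblast markers and 0.024 for hepatocyte markers.

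Relatives and partners of the 10 genes differed among themselves, with 8 lower and 4 higher of 14 tested between the times in untreated spheroids, near the 52.4% and 20.1% of all genes. LDHA, the muscle-type lactate dehydrogenase subunit, stood at 968 FPKM at 24 h and 1155 FPKM at 144 h in untreated spheroids, a log2 fold change of 0.26 where LDHB had -3.13. TMSB10, the relative of TMSB4X, was at 1072 and 1314 FPKM (log2 fold change 0.29), and TPN at 144 h raised it to 2561 FPKM (log2 fold change 0.96, limma adjusted p = 2.95e-10) while TMSB4X fell. TAGLN2, the transgelin relative, fell from 10.2 to 3.15 FPKM (log2 fold change -1.67) and rose with TPN at 144 h by 0.58 on the log2 scale. CAVIN1, which builds caveolae together with caveolin, fell by 0.85 with time and was 0.66 higher with TPN at 144 h, where CAV1 was lower.

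S100A6 and S100A10, relatives of S100A4, had log2 fold changes of -0.58 and -0.028 with time in untreated spheroids, and both rose with TPN at 144 h, by 1.41 and 0.27. Of the receptors related to AXL, TYRO3 went from 6.66 to 7.55 FPKM (log2 fold change 0.18) and MERTK had a log2 fold change of -0.37 with time, to 10.1 FPKM, in untreated spheroids. Neither passed for TPN at 144 h, with limma adjusted p = 0.353 for TYRO3 and 0.194 for MERTK, and the ligand gene GAS6 was below the filter at 0.257 to 0.41 FPKM in group means. In untreated spheroids at 144 h, AXL at 5.34 FPKM lay below both related receptors.

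Proliferation genes were lower at 144 h and lower again with TPN, while markers of other cell types were mixed. Hepatocyte markers had 8 higher and 6 lower of 19 tested with time in untreated spheroids, against 20.1% and 52.4% of all genes, and a median log2 fold change of 0.024. With TPN at 144 h they had 4 higher and 11 lower, against 24.2% and 28.3% of all genes, with ALB, albumin, at -0.65, AFP, alpha-fetoprotein, at -0.69 and TF, transferrin, at -0.59 on the log2 scale. All 14 proliferation genes fell with time (median -0.63) and again with TPN at 144 h (median -0.56), with summed levels of 1483 to 1497 FPKM at 24 h and 909 to 936 FPKM at 144 h in untreated and 635 to 664 FPKM in exposed spheroids. Cholangiocyte markers had 1 higher and 2 lower of 3 tested with time, and with TPN at 144 h 0 higher and 1 lower. Macrophage markers had 0 higher and 1 lower of 4 tested with time, and with TPN at 144 h 2 higher (CD68 and LYZ) and 0 lower. The part of these changes in the values of the 10 genes was not tested.

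The genes whose profile was most like the mean of the 9 genes without AXL, among 8332 genes with a mean of at least 5 FPKM, were PSMC4, DUS1L, CST3, SDC1 and LAD1, with Pearson r from 0.997 to 0.999 over 12 libraries. Among those most like AXL were EDEM1, LPIN2 and MXD1, with r from 0.991 to 0.997. The 12 libraries form 2 clusters by time, which sets most of each r, and the sizes differed: PSMC4 went from 96.7 to 71.4 FPKM in untreated spheroids where VIM went from 15.6 to 2.44 FPKM, and MXD1 from 3.49 to 8.74 FPKM where AXL went from 2.08 to 5.34 FPKM.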

How the data were processed

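RNA of 12 spheroid libraries was sequenced on the DNBSEQ platform. The authors filtered the reads with SOAPnuke, mapped them with HISAT2 2.0.4 to GRCh38.p13 and with Bowtie2 2.2.5 to reference transcripts (versions per the submitters' processing notes), and computed FPKM with RSEM. These FPKM were used as the authors deposited them, at 2 decimals. Scaling by library total means that a change in a few abundant genes shifts all others. After 20 broken lines of annotation were left out, 16705 genes remained.

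Genes with a mean of at least 0.5 FPKM (11713) entered a limma model (version 3.58.1, R version 4.3.3) of log2(FPKM + 0.1) with the 4 groups and an intensity trend, and p values were adjusted by Benjamini-Hochberg over all genes. Read counts were not used here, so no count test was run. The procedure was tested on simulated data. Depth was estimated from steps of low FPKM, with GENCODE v44 lengths. Only genes with most values near whole multiples of 1 fragment were kept. In these 95.2% of 457 values lay within 0.2 of a whole multiple, a share that the selection set in part. Motifs were searched in RefSeq promoters, taking the first listed start. Python 3.11.15, pandas 2.3.3, numpy 2.4.6, scipy 1.17.1 and matplotlib 3.10.9 were used.

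The 10 genes and the lists were chosen with earlier results of these data known. Named besides them were the partners, the qPCR markers, list genes at 5 FPKM or more with the 3 largest changes of their list with time or with TPN at 144 h, and the 5 genes most like the mean of the 9 genes or AXL, of which some are not reported here. Alternatives changed the pseudocount (1 or 0.01), filter, scaling, libraries in the model, trend, replicate block and call rule, and left out each library in turn.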

Additional observations from a re-analysis of the deposited data

Results flagged for a closer look

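The effect of TPN on VIM differed between the 2 exposure times, with a tested difference of -0.83 on the log2 scale between the effects at 144 h and 24 h (limma adjusted p = 0.0158). That the genes were chosen on a change with time limits how this p value can be read. The exposed libraries lay below the untreated ones without overlap at both times, where 29.9% (24 h) and 57.3% (144 h) of all genes had no overlap. The effect was -0.24 at 24 h (limma adjusted p = 0.423) and -1.07 at 144 h. TMSB4X differed in the same direction but less firmly, by -0.58 (limma adjusted p = 0.0400), with effects of -0.17 and -0.75. Its difference missed the threshold in 11 alternatives, and that of VIM in 1.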

How the results depend on the processing

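For TPN at 144 h VIM, TMSB4X and AXL kept their direction under the alternatives run for each, and stayed past the adjusted p threshold, except that AXL was below the added fold criterion and was not tested when a mean of at least 5 FPKM was required. Their log2 fold changes ran from -1.28 to -0.70, from -0.85 to -0.54 and from 0.44 to 0.57. The number of the 10 genes called for TPN at 144 h was 4, and it was 7 with quantile normalization and 2 with the added fold criterion. At 24 h it was 0, and 1 (LDHB) with a pseudocount of 1 or with only the compared groups in the model. For the difference between the times it was 2, and 1 with a pseudocount of 1, without a filter, without the trend, with the added fold criterion or with the replicate block, and between 1 and 3 when each library was left out. A model of the compared groups alone could not give that difference. VIM missed the threshold for it with a pseudocount of 1 (adjusted p = 0.0514, in a range from 0.00126 over the alternatives). When a mean of at least 5 FPKM was required, fewer of the other mesenchymal genes were tested. Then 9 in place of 20 were lower with TPN at 144 h and 23 in place of 41 were lower with time. That filter left out many low-level genes that were lower. The number higher with TPN at 144 h ran only from 22 to 26 over all alternatives. In each other case the cause was not tested.

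Some estimates near 0 changed sign. S100A4 was at -0.0023 for TPN at 24 h with quantile normalization and at -8.0e-05 at 144 h with equal totals, and its difference between times was -0.0048 with equal totals and -0.0014 with median ratio scaling. The difference was 0.17 for LDHB and 0.029 for THY1 with a pseudocount of 1. With each library left out, AXL ran from -0.023 to 0.22, S100A4 from -0.081 to 0.088 and GSTP1 from -0.18 to 0.082 for TPN at 24 h, S100A4 from -0.048 to 0.076 and TAGLN from -0.18 to 0.086 at 144 h, and the difference between times from -0.074 to 0.095 for S100A4 and from -0.32 to 0.15 for LDHB. For TPN at 144 h, LDHB passed with quantile normalization and without untreated library 1 (log2 fold change -0.71) or exposed library 3 (-0.65), with adjusted p from 0.00649 to 0.429 over the alternatives. GSTP1 passed without exposed 24 h library 2, without exposed 144 h library 1 (-0.62), with equal totals, with quantile normalization and with a mean of at least 5 FPKM, and its adjusted p ran from 0.0108 to 0.265. THY1 passed with a pseudocount of 0.01 (-0.89), without a filter, with quantile normalization and without the trend, and its adjusted p ran from 0.00875 to 0.468. The change of THY1 with time in untreated spheroids was -3.54 with a pseudocount of 0.01 and -0.92 with 1.

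Whether replicate numbers pair the libraries was not settled, and the main model holds no pairing. Correlations of same-numbered deviations ran from -0.083 to 0.151, and those of other pairs from -0.241 to 0.114. Above 0.1 lay 5 of 18 same-numbered pairs and 2 of 36 others, and 8 of 12 libraries correlated best with their own number. A weak pairing is thus possible. With the replicate block the difference between times was called for 1 gene, TMSB4X having adjusted p = 0.0591. Values under 0.1 FPKM, such as THY1 at 144 h, are limited by depth.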
